A study of Mus musculus with 15 samples.

Results

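The genes described here build the lectican matrix of the brain and the perineuronal net that condenses from it around some neurons. They are the 4 lecticans Acan (aggrecan), Bcan (brevican), Ncan (neurocan) and Vcan (versican), the link proteins Hapln1 and Hapln4, the hyaluronan synthases Has2 and Has3, the glycoprotein Tnr (tenascin-R) and the protease Adamts5. They were chosen by name, 10 of the 32285 genes counted, and all 10 had counts.

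Lecticans are chondroitin sulfate proteoglycans that bind hyaluronan at one end and tenascin-R at the other, and link proteins hold the lectican to the hyaluronan chain. Where these parts are laid down densely they form perineuronal nets, best known around fast-spiking parvalbumin interneurons and around pyramidal neurons of hippocampal area CA2. Adamts5 is one of the proteases that cut lecticans, and removal of nets is widely used to reopen plasticity in adult tissue.

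Single-nuclei RNA sequencing (snRNA-seq, 10x Chromium 3′ libraries) covered micropunches of the dorsal hippocampal formation (dHF) from 15 adult female C57BL6/J mice with no genetic change, 1 library per mouse. The 6 virgin nulliparous (NP) mice had neither bred nor been given pups, the 4 control reproductive experience (control RE) mice had mated, given birth and raised their litters to weaning, and the 5 stress RE mice had done the same with limited nesting and daily separation from their pups late in the postpartum period. Mice are named by group and by the number in their label. Batch 1 held NP mice 27 and 31 and stress RE mouse 70, and batches 2 and 3 held 2 mice of each group, so no control RE mouse was in batch 1. The paper states that every group was present in each batch, which does not hold for batch 1 as numbered here.

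Of 134019 barcodes, 123913 nuclei were kept, 5468 to 11438 per mouse, and libraries held 40602582 to 96211264 unique molecules (UMIs). Marker genes placed 113123 nuclei (91.3%) in 28 classes, in which the genes described here and 73 related genes played no part. Each class is "X-like" by its markers, and its name is used below without that ending. The nuclei left unnamed were 3.24% to 25.4% of a mouse, highest in NP mouse 31 and next in the other mice of batch 1, and the punches also held thalamic, habenular, cortical and striatal-type neurons. A level is given in CPM (counts per 1000000), the UMIs of a gene per 1000000 UMIs of all nuclei of a class in a mouse, as mean ± SD over the mice that had 10 or more such nuclei. Levels are compared between classes and mice and not between genes, since gene length and nuclear intron content differ. Barcodes that occurred in more than 1 library numbered 2211, at 6 to 47 per pair of libraries.

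Tnr and Vcan reached their highest levels in the oligodendrocyte precursor lineage (below), and the 250 bases before their annotated starts are shown because that lineage is where both stood highest. They are RefSeq promoter sequences of GRCm38.p6, read 5′ to 3′ on the strand of the gene, and capitals mark the letters ACAAAG or their complement CTTTGT, the core bound by SOX factors. The letters were found once in the Tnr window (chr1:159523519-159523768, plus strand) and not in the Vcan window (chr13:89742513-89742762, minus strand), and 16.5% of 32851 promoters of that length held them.
Tnr: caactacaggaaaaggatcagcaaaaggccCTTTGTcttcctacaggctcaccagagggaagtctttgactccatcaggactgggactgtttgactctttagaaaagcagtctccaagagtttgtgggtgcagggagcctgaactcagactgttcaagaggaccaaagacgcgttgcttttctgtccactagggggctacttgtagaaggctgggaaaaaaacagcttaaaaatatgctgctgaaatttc
Vcan: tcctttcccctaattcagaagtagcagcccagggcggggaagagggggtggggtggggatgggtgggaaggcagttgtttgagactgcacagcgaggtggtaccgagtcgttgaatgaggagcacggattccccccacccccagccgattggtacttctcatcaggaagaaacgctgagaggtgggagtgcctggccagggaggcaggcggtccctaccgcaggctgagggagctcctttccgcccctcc
The E-box CAGCTG, which 13.0% of all promoters held, was in neither window. Promoters matched 6 of the 10 genes by symbol.

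**Figure D1:**
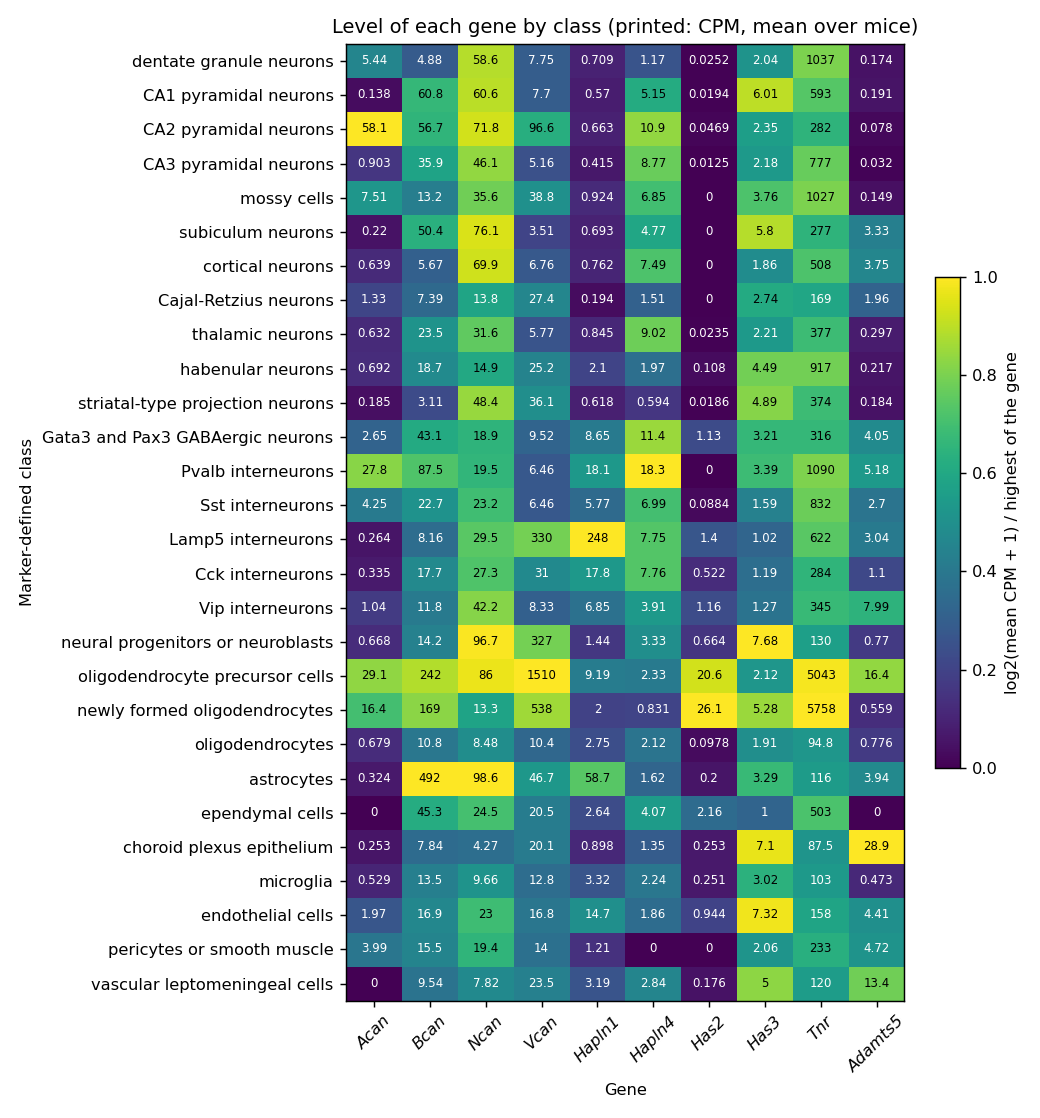
Mean level over mice in CPM (printed) of the 10 genes (columns) in the 28 marker-defined classes (rows), with colour showing log2(mean CPM + 1) as a share of the highest class of that gene. Acan is highest in CA2 pyramidal neurons at 58.1 CPM, Bcan in astrocytes at 492 CPM, Vcan in oligodendrocyte precursor cells at 1510 CPM and Hapln1 in Lamp5 interneurons at 248 CPM.

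Acan (chr7:79053483-79115099, plus strand, GRCm38), the lectican most used to mark perineuronal nets, had its highest level in CA2 pyramidal neurons at 58.1 CPM ± 30.7 (SD, n = 15). Next came oligodendrocyte precursor cells at 29.1 CPM ± 7.47 and Pvalb interneurons at 27.8 CPM ± 10.4. CA1 and CA3 pyramidal neurons, the neighbours of CA2 in the same tissue, had 0.138 CPM ± 0.204 and 0.903 CPM ± 0.455. Within mice, CA2 was above precursor cells in 14 of 15, by a log2 ratio of 0.89 ± 0.51 on the log2(CPM + 1) scale (adjusted p = 0.000305, two-sided exact sign-flip permutation test, adjusted over the 10 genes). The pair of classes in such tests was picked by its means, so the p describes how steady the order was over mice. Precursor cells and Pvalb interneurons could not be ordered, as precursor cells were higher in 6 of 15 mice, and newly formed oligodendrocytes at 16.4 CPM ± 16.5 ranged from 0 to 57.0 CPM.

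Acan levels rested on few molecules per mouse in the rarer classes. CA2 pyramidal neurons numbered 12 to 68 nuclei per mouse and held 15 to 83 Acan UMIs, and Pvalb interneurons numbered 14 to 59 nuclei and held 2 to 31. When every nucleus was thinned to 1000 UMIs, which left out 1088 NP, 682 control RE and 949 stress RE nuclei, 4.39% of CA2 nuclei had an Acan UMI, against 3.31% of Pvalb interneurons, 2.22% of precursor cells and 0.0802% of microglia. Without thinning the shares were 54.1% in CA2 (median 19081 UMIs per nucleus), 27.3% in Pvalb interneurons (15849), 10.8% in precursor cells (4452) and 0.117% in microglia (2062), a cell type that should lack these matrix genes, taken as the level of free RNA. The thinned log2 ratio of CA2 to precursor cells over mice was −0.20, with no Acan UMI left in CA2 of 4 of the 15 mice.

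In the cortical and hippocampal interneurons other than the Pvalb class, Acan was at 4.25 CPM ± 4.87 in Sst, 1.04 CPM ± 2.77 in Vip, 0.335 CPM ± 0.974 in Cck and 0.264 CPM ± 0.547 in Lamp5 interneurons. Mossy cells had 7.51 CPM ± 6.31 (n = 12) and dentate granule neurons 5.44 CPM ± 1.91. Granule neurons made up 25.2% of all nuclei and held 40.1% of all Acan UMIs, while CA2 pyramidal neurons at 0.496% of nuclei held 17.7%.

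**Figure D2:**
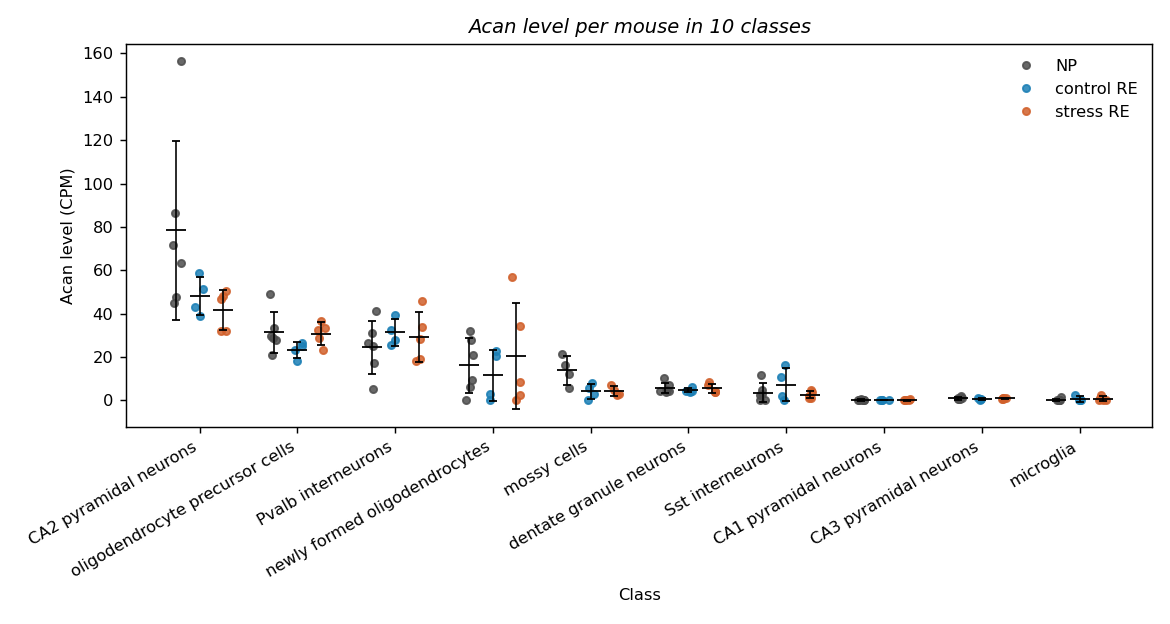
Acan level in CPM (vertical axis) in 10 classes (horizontal axis), with 1 point per mouse coloured by group and bars for the group mean ± SD. CA2 pyramidal neurons range from 31.9 to 156 CPM and CA1 pyramidal neurons stay at or below 0.644 CPM.

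Bcan (chr3:87987531-88000230, minus strand), a lectican made largely by glia, was highest in astrocytes at 492 CPM ± 87.4 (n = 15). Oligodendrocyte precursor cells followed at 242 CPM ± 59.5, newly formed oligodendrocytes at 169 CPM ± 86.9 and Pvalb interneurons, the highest of the neurons, at 87.5 CPM ± 33.2. Astrocytes were above precursor cells in 15 of 15 mice, by a log2 ratio of 1.04 ± 0.17 (adjusted p = 0.000203, exact sign-flip test, whose smallest raw p with 15 mice is 6.1e-05). Pvalb interneurons were above CA1 pyramidal neurons (60.8 CPM ± 14.4) in 14 of 15 mice, whereas CA1 and CA2 (56.7 CPM ± 23.9) were not separated, with CA1 higher in 10 of 15. Microglia had 13.5 CPM ± 5.15, close to mature oligodendrocytes at 10.8 CPM.

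Ncan (chr8:70093085-70120873, minus strand), the lectican typical of the developing brain, had the flattest profile of the 4. Astrocytes had 98.6 CPM ± 16.9, neural progenitors or neuroblasts 96.7 CPM ± 33.4 (n = 10), precursor cells 86.0 CPM ± 18.4, subiculum neurons 76.1 CPM ± 14.7 (n = 12) and CA2 pyramidal neurons 71.8 CPM ± 17.7. None of these neighbours differed beyond the spread over mice, and astrocytes were above progenitors in 5 of 10 mice (adjusted p = 0.589, exact sign-flip test). Sst and Pvalb interneurons were low, at 23.2 and 19.5 CPM, and newly formed oligodendrocytes at 13.3 CPM stood far below the precursor cells. Microglia had 9.66 CPM ± 5.65.

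Vcan (chr13:89655312-89742509, minus strand), a large lectican known from oligodendrocyte precursors, stood at 1510 CPM ± 144 in those cells, with 1263 CPM in the lowest mouse and 1706 CPM in the highest. Newly formed oligodendrocytes had 538 CPM ± 253 and were lower in 15 of 15 mice (log2 ratio 1.70 ± 0.94, adjusted p = 0.000203, exact sign-flip test). Lamp5 interneurons (330 CPM ± 49.2) and neural progenitors or neuroblasts (327 CPM ± 113, n = 10) came next and could not be ordered, with Lamp5 higher in 3 of 10 mice. CA2 pyramidal neurons had 96.6 CPM ± 22.4, above astrocytes (46.7 CPM ± 10.9) in 15 of 15 mice, while CA1, CA3 and subiculum neurons had 7.70, 5.16 and 3.51 CPM and microglia 12.8 CPM. After thinning, 73.9% of precursor nuclei, 30.5% of newly formed oligodendrocytes, 27.8% of Lamp5 interneurons and 1.40% of microglia had a Vcan UMI. Precursor cells were 2.56% of nuclei and held 55.3% of the Vcan UMIs.

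Hapln1 (chr13:89539796-89611652, plus strand), the link protein that ties aggrecan to hyaluronan, was highest in Lamp5 interneurons at 248 CPM ± 62.0, with 149 CPM in the lowest mouse and 375 CPM in the highest. Among named classes, astrocytes followed at 58.7 CPM ± 18.2 and were lower in 15 of 15 mice (log2 ratio 2.09 ± 0.34, adjusted p = 0.000203, exact sign-flip test). A set of 64 nuclei, left unnamed out of a GABAergic cluster led by Lhx6, Kcns3 and Npy, had 97.4 CPM over all its nuclei. The highest named class had 251 CPM over all its nuclei. Pvalb interneurons had 18.1 CPM ± 9.89 and Cck interneurons 17.8 CPM ± 13.9, in no fixed order, and CA2 pyramidal neurons had 0.663 CPM. The 0.69% of nuclei in the Lamp5 class held 39.5% of the Hapln1 UMIs. After thinning, 22.1% of Lamp5 interneurons, 5.25% of astrocytes and 0.281% of microglia had a Hapln1 UMI. The endothelial mean of 14.7 CPM ± 39.0 came from NP mouse 35, at 154 CPM.

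Hapln4 (chr8:70083457-70090862, plus strand), the link protein that pairs with brevican at inhibitory synapses, was highest in Pvalb interneurons at 18.3 CPM ± 12.5. The Gata3 and Pax3 GABAergic neurons, a mixed class of 6 sub-clusters of which 2 had Gata3 or Pax3 among their 10 leading genes, had 11.4 CPM ± 6.59, CA2 pyramidal neurons 10.9 CPM ± 5.90, thalamic neurons 9.02 CPM ± 3.28 and CA3 pyramidal neurons 8.77 CPM ± 3.32. Pvalb interneurons were above the Gata3 and Pax3 class in 13 of 15 mice (log2 ratio 0.63 ± 0.86, adjusted p = 0.0204, exact sign-flip test), and the classes after them could not be ordered. This order was the least secure of those past the threshold, as it missed the threshold (0.49, adjusted p = 0.0638, exact sign-flip test) in nuclei of the lower 80% of the doublet score. In thinned nuclei the log2 ratio was −0.30, with no Hapln4 UMI left in Pvalb interneurons of 8 of the 15 mice. An unnamed set of 742 nuclei led by Ccdc192, Tfap2d and C1ql4 had 19.9 CPM over all its nuclei, against 15.9 CPM over all Pvalb nuclei.

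Both link proteins lie beside a lectican in the genome. Vcan and Hapln1 are 43.7 kb apart on chromosome 13 and Ncan and Hapln4 2.22 kb apart on chromosome 8, each pair on opposite strands. Over the 28 classes the Pearson correlation of mean log2(CPM + 1) was 0.31 for Vcan with Hapln1 and 0.33 for Ncan with Hapln4. The closest neighbours of Acan and Bcan among the link proteins, Hapln3 and Hapln2, were highest in precursor cells (10.5 CPM ± 2.54) and in mature oligodendrocytes (197 CPM ± 37.8). Hapln3 ends 0.003 kb from the end of Acan on the other strand, and how the counting used strand is not given in the sources used here, so reads of the ends of both genes may not be told apart.

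The hyaluronan synthases make the chain on which the matrix is built. Has2 (chr15:56665627-56694539, minus strand) was found in newly formed oligodendrocytes at 26.1 CPM ± 14.2 and precursor cells at 20.6 CPM ± 5.51, and was at or below 2.16 CPM in the other 26 classes. The order of the first pair was not settled, with newly formed oligodendrocytes higher in 7 of 15 mice (log2 ratio 0.20 ± 0.97, adjusted p = 0.550, exact sign-flip test). Precursor cells held 59.2% of its UMIs and newly formed oligodendrocytes 19.2%, and mature oligodendrocytes had 0.0978 CPM. Has3 (chr8:106870242-106884566, plus strand) was low throughout, at 7.68 CPM or less in every class. CA1 pyramidal neurons had 6.01 CPM ± 1.76, with counts in all 15 mice (3.12 to 9.91 CPM), while the 3 classes with higher means each had mice at 0. Has2os overlaps Has2 and Chtf8 overlaps Has3 on the other strand, as Gm4117 does Vcan, and their reads may not be told apart.

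Tnr (chr1:159523769-159931729, plus strand), the tenascin that cross-links lecticans, was at 5758 CPM ± 1962 in newly formed oligodendrocytes and 5043 CPM ± 354 in precursor cells. Newly formed oligodendrocytes were higher in 11 of 15 mice, yet the mean log2 ratio was 0.09 ± 0.63 (adjusted p = 0.589, exact sign-flip test), and it was −0.76 in nuclei of the lower 80% of the doublet score. Precursor cells were above the next class, Pvalb interneurons at 1090 CPM ± 179, in 15 of 15 mice by 2.23 ± 0.21 on the log2 scale. Dentate granule neurons (1037 CPM ± 73.8), mossy cells (1027 CPM ± 149), habenular neurons (917 CPM ± 134) and Sst interneurons (832 CPM ± 133) followed with no clear order between neighbours. CA2 pyramidal neurons, at 282 CPM, were below CA3 (777 CPM) and CA1 (593 CPM). Granule neurons held 45.4% of the Tnr UMIs.

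Newly formed oligodendrocytes were a mixed class for Tnr. In thinned nuclei, 42.8% of the 600 nuclei of that class had no Tnr UMI and 47.2% had 5 or more, whereas 2.29% of precursor nuclei had none and 52.4% had 5 or more. Among mature oligodendrocytes 91.2% had none, and their level of 94.8 CPM was near that of microglia (103 CPM ± 37.6) and astrocytes (116 CPM). A Tnr UMI was present in 9.84% of thinned microglia, so Tnr levels of about 100 CPM are not above those in microglia. Gm38039 overlaps Tnr on the other strand and had the most similar profile over classes (Pearson r = 0.90).

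**Figure D3:**
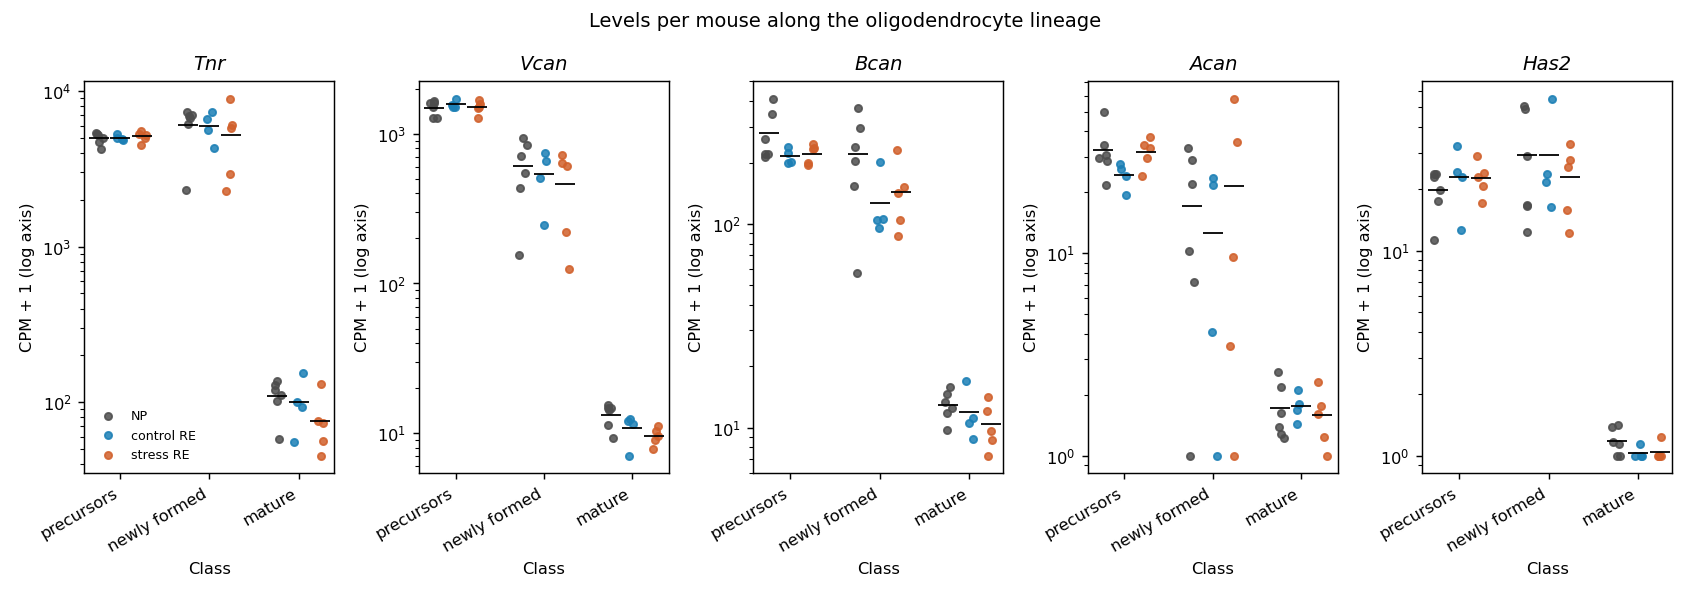
Levels (CPM + 1, log axis) of Tnr, Vcan, Bcan, Acan and Has2 in oligodendrocyte precursor cells, newly formed oligodendrocytes and mature oligodendrocytes, with 1 point per mouse coloured by group and a line at the group mean. Tnr averages 5043, 5758 and 94.8 CPM in the 3 stages, while Vcan averages 1510, 538 and 10.4 CPM.

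Adamts5 (chr16:85856173-85901828, minus strand), a protease of aggrecan and versican, was highest in choroid plexus epithelium at 28.9 CPM ± 11.0 (n = 13). Precursor cells had 16.4 CPM ± 6.25, vascular leptomeningeal cells 13.4 CPM ± 9.73 and Vip interneurons 7.99 CPM ± 5.63. Choroid plexus was above precursor cells in 10 of 13 mice, by a log2 ratio of 0.64 ± 0.95 that did not pass (adjusted p = 0.0602, exact sign-flip test). A set of 64 nuclei, left unnamed out of a GABAergic cluster led by Lhx6, Kcns3 and Npy, had 130 CPM over all its nuclei, against 26.8 CPM over all nuclei of the highest named class, and sets left unnamed held 23.4% of the Adamts5 UMIs.

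Between the 10 genes, the profiles over the 28 classes were most alike for Vcan and Has2 (Pearson r = 0.69), Has2 and Tnr (0.64) and Acan and Tnr (0.56), classes of the same 15 libraries being the points. Among 15733 genes that reached 10 CPM in a class, the gene most like Acan was Gm26633, an antisense gene 0.16 kb from Acan (r = 0.89), followed by Tafa2 and Ehd3. Has2 was most like Neu4 (r = 0.97), A930009A15Rik and Susd5, all among the leading genes of the precursor cluster, and Neu4 was also in the marker list of newly formed oligodendrocytes. For Vcan the closest were Chst5 (0.78), Ckap2 and E2f8, for Hapln1 6530411M01Rik (0.86), Nmbr and D930020B18Rik, and for Hapln4 Flt3 (0.85), Tmem151b and Fndc5. For Bcan they were Gm20713 (0.78), Atp7b and Gm9750, for Ncan Mir9-3hg (0.82), Ctnnd2 and Apba2, for Tnr after Gm38039 Opcml (0.75) and Slc1a1, and for Adamts5 Lrrc38 (0.80), Ctf1 and Dmgdh. Has3 did not reach 10 CPM in a class and was not compared.

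Whether reproductive experience or postpartum stress went with other levels of these genes was tested on counts summed per mouse and class, where the spread between mice sets the error. Over classes, none of the 10 genes passed an adjusted p of 0.05 by edgeR in any of the 3 comparisons. Control RE minus NP gave 105 tests in 26 classes, of which 7 (6.67%) had an unadjusted p under 0.05, 1 higher and 6 lower, against 3.39% of tests over all genes. Stress RE minus control RE gave 4 of 108 (3.70%), 1 higher and 3 lower, against 2.92%, and stress RE minus NP gave 10 of 109 (9.17%), 1 higher and 9 lower, against 3.96%. The split into higher and lower was not counted over all genes, so these splits have no share to be set against. The counts for control RE minus NP and stress RE minus NP each include Hapln4 in Pvalb interneurons, which passed the filter on low counts through the NP mice in which it was high. Each count also includes genes whose CPM was at, near or below that in microglia. Among these were Vcan in CA1 in the first and Tnr in microglia in the second. In the last they included Tnr in microglia and astrocytes, and Vcan in mature oligodendrocytes and CA3. CA1 and CA3 nuclei held more UMIs than microglia, so the CPM in microglia cannot be read as their level of free RNA. Tnr alone was tested in all 28 classes (80 tests), and classes of the same mice are not independent. Adjusted p under 0.05 was reached by 0%, 0.00175% and 0% of tests over all genes in these comparisons. DESeq2 called 0 of the 10 genes in each comparison as well, with 7, 4 and 9 tests at an unadjusted p under 0.05.

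The median log2 fold change of the 10 genes over classes was −0.10 for control RE minus NP, −0.02 for stress RE minus control RE and −0.12 for stress RE minus NP. Class medians of all genes were −0.0035, −0.00092 and −0.0034, which the normalization (TMM) holds near 0. How far the medians of other small sets of genes spread was not measured. The comparisons with NP share the NP mice, so their fold changes are not independent. Groups did not overlap in 3 of 105, 1 of 108 and 2 of 109 tests of the 10 genes, against 1.14%, 2.24% and 0.798% of tests over all genes.

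Acan in CA2 pyramidal neurons was 47.7, 156, 71.7, 63.3, 44.9 and 86.3 CPM in NP mice 27, 31, 35, 37, 63 and 73. It was 51.2, 58.9, 39.1 and 43.2 CPM in control RE mice 66, 72, 87 and 88, and 31.9, 48.1, 46.8, 50.7 and 32.0 CPM in stress RE mice 43, 70, 75, 77 and 90. NP mouse 31 stood above all others, and the groups overlapped. The log2 fold change of stress RE minus NP was −0.78 (SE 0.25, adjusted p = 0.532 by edgeR), and −0.49 and −0.91 within batches 2 and 3. Without NP mouse 31 it was −0.44 (adjusted p = 0.915 by edgeR), with the NP mean at 62.8 CPM in place of 78.4. CA2 neurons made up 0.405% of nuclei in NP mice, 0.502% in control RE mice and 0.653% in stress RE mice. In Pvalb interneurons, the class in which nets are most studied, Acan was 24.4 CPM ± 12.3 in NP, 29.1 CPM ± 11.6 in stress RE and 31.3 CPM ± 6.02 in control RE mice, with overlapping groups.

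Bcan in astrocytes spanned 393 to 717 CPM in NP mice (median 503), 425 to 503 CPM in stress RE and 426 to 515 CPM in control RE mice. Its NP range contained both other groups, and NP mice 27 and 31 of batch 1 were the highest at 717 and 645 CPM. In precursor cells the log2 fold change of Bcan was −0.34 (SE 0.15) for control RE minus NP and −0.31 (SE 0.14) for stress RE minus NP, both with an unadjusted p under 0.05 and an adjusted p of 1.00 by edgeR, and NP mice 27 and 31 of batch 1 were again the highest, at 346 and 410 CPM against 213 to 259 CPM in the other NP mice. Within batches 2 and 3 the values were 0.06 and −0.24 for control RE minus NP, and −0.0018 and −0.14 for stress RE minus NP. Without NP mouse 31 they were −0.21 and −0.17 over all batches.

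Ncan in mossy cells was 74.2, 43.2, 40.3 and 44.4 CPM in NP mice 27, 35, 63 and 73, the NP mice with at least 10 such nuclei. Control RE mice 66, 72, 87 and 88 had 25.0, 23.1, 33.3 and 32.5 CPM, and stress RE mice 43, 75, 77 and 90 had 32.6, 27.1, 26.9 and 24.3 CPM. Every NP mouse lay above every mouse of the other groups, on 8 to 27 Ncan UMIs per mouse. Control RE minus NP was −0.83 (SE 0.28, adjusted p = 0.644) and stress RE minus NP −0.84 (SE 0.27, adjusted p = 0.687), both by edgeR. Within batches 2 and 3 the values were −0.57 and −0.59 for control RE and −0.69 and −0.56 for stress RE, batch 3 with 1 NP mouse. Ncan in subiculum neurons was also without overlap, at 72.7 to 103 CPM in 6 NP and 60.1 to 69.9 CPM in 3 stress RE mice (−0.35, SE 0.16, adjusted p = 1.00 by edgeR), with −0.54 in batch 2 and no stress RE mouse with enough of these nuclei in batch 3. The 3 control RE mice, at 62.9 to 71.4 CPM, also lay below every NP mouse (−0.28, SE 0.17, adjusted p = 1.00 by edgeR). The nearest mice were control RE mouse 88 at 71.4 CPM on 27 UMIs and NP mouse 73 at 72.7 CPM on 30 UMIs, so this gap rests on very few molecules.

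Vcan in precursor cells had 1478 CPM ± 174 in NP, 1503 CPM ± 152 in stress RE and 1568 CPM ± 94.3 in control RE mice, and the 3 mice of batch 1 were the lowest of all, at 1263 to 1271 CPM. In neural progenitors or neuroblasts it was 289, 170 and 219 CPM in NP mice 35, 37 and 73. Control RE mice 66, 72 and 87 had 297, 302 and 398 CPM, and stress RE mice 43, 75, 77 and 90 had 501, 359, 504 and 234 CPM. Control RE and NP mice did not overlap, but control RE mouse 66, on 16 UMIs, was only just above NP mouse 35. Stress RE minus NP was 0.84 (SE 0.26, adjusted p = 0.999 by edgeR), and 0.35 and 1.14 within batches 2 and 3, batch 2 with 1 NP mouse. The 10 mice with enough of these nuclei held 7 to 181 Vcan UMIs each. In striatal-type projection neurons, stress RE mice 43, 75 and 77 had 42.0, 38.4 and 52.8 CPM of Vcan and control RE mice 66, 72 and 87 had 31.9, 19.9 and 29.5 CPM, without overlap. Stress RE minus control RE was 0.65 (SE 0.26, adjusted p = 0.370 by edgeR) there, and 1.37 and 0.38 within batches 2 and 3, batch 2 with 1 mouse of each group. Lower Vcan levels with an unadjusted p under 0.05 by edgeR were also seen. For stress RE minus NP they were in mature oligodendrocytes (−0.59 and −0.52 within batches 2 and 3) and CA3 pyramidal neurons (0.055 and −1.05). For control RE minus NP they were in CA1 pyramidal neurons (−0.23 and −0.83). Mean Vcan in CPM was below that in microglia in each of these classes, and the part of free RNA in these differences was not tested. CA1 and CA3 nuclei held more UMIs (medians 13436 and 17220) than microglia (2062), so the CPM in microglia cannot be read as their level of free RNA.

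Hapln4 in Pvalb interneurons was 24.2, 58.2, 17.8, 17.4, 25.1 and 22.0 CPM in NP mice 27, 31, 35, 37, 63 and 73. Control RE mice 66, 72, 87 and 88 had 17.8, 7.03, 5.09 and 8.82 CPM, and stress RE mice 43, 70, 75, 77 and 90 had 18.1, 16.3, 13.6, 12.7 and 10.7 CPM, on 2 to 18 UMIs per mouse. Control RE mouse 66 reached into the NP range, and the other control RE mice lay below it. The fitted log2 fold change of control RE minus NP was −1.22, and the values within batches 2 and 3 were −1.33 and −0.74. The gene passed the filter on low counts through the NP mice in which it was high, since leaving out any of NP mice 27, 31, 63 and 73 took it under the filter, so this value is given as a description. With no filter on low counts it was −1.14 (adjusted p = 0.708 by edgeR). Without NP mouse 31 the NP mean was 21.3 CPM ± 3.57 in place of 27.5. Hapln1 in the same cells had the opposite sign, 0.98 (SE 0.45, adjusted p = 0.945 by edgeR), at 11.8 CPM ± 7.76 in NP and 23.8 CPM ± 7.76 in control RE mice. The groups overlapped, with NP mouse 27 at 24.2 CPM and control RE mice 72 and 88 at 16.9 and 17.6 CPM. NP mice held 0 to 7 Hapln1 UMIs there, with 0 in NP mouse 31, and control RE mice 11 to 33.

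Has2 was tested in precursor cells, where the groups overlapped at 18.8 CPM ± 4.87 in NP, 21.7 CPM ± 4.38 in stress RE and 21.9 CPM ± 8.10 in control RE mice, and its 3 fold changes lay between −0.03 and 0.24. Has3 passed the filter in 6 classes and Adamts5 in 3, with no unadjusted p under 0.05 by edgeR among the 18 and 9 tests. Adamts5 in choroid plexus was 28.9 CPM ± 11.8 in NP (n = 5), 35.0 CPM ± 3.61 in control RE (n = 4) and, with stress RE mouse 90 at 3.29 CPM, 23.0 CPM ± 13.9 in stress RE mice (n = 4).

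Tnr in precursor cells had nearly the same level in each group, 4983 CPM ± 439 in NP, 5130 CPM ± 383 in stress RE and 5026 CPM ± 214 in control RE mice. In Cajal-Retzius neurons it was 270, 105, 328 and 214 CPM in control RE mice 66, 72, 87 and 88, and 207, 143, 137, 32.1 and 103 CPM in stress RE mice 43, 70, 75, 77 and 90. Stress RE minus control RE was −0.92 (SE 0.31, adjusted p = 0.388 by edgeR), and −1.22 and −0.79 within batches 2 and 3. Control RE minus NP in neural progenitors or neuroblasts was −1.36 (SE 0.46, adjusted p = 1.00 by edgeR), on 3 mice a group and 2 to 62 UMIs per mouse. Tnr in stress RE was also lower than NP, at an unadjusted p under 0.05 by edgeR, in astrocytes (−0.59) and microglia (−0.64). Over all mice these 4 classes had 103 to 169 CPM of Tnr, with microglia the lowest, and the part of free RNA in these differences was not tested. In striatal-type projection neurons Tnr was lower in stress RE than control RE at an unadjusted p under 0.05 by edgeR, with −0.38 and −0.21 within batches 2 and 3. Stress RE mice 43, 75 and 77 had 383, 329 and 318 CPM there. Control RE mice 66, 72 and 87 had 343, 415 and 482 CPM, so the groups overlapped.

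Summed over all nuclei of a punch, where fewer nuclei of a class and less RNA per nucleus cannot be told apart, none of the 10 genes passed by edgeR or DESeq2, and none had an unadjusted p under 0.05 in any comparison. Over all genes, adjusted p under 0.05 was reached by 0.00473%, 0% and 0% of 21159 genes in control RE minus NP, stress RE minus control RE and stress RE minus NP, and an unadjusted p under 0.05 by 3.99%, 0.86% and 3.94%. The smallest p among the 10 was that of Bcan for stress RE minus NP at −0.36 (SE 0.17, adjusted p = 0.999 by edgeR). Bcan was 52.2 CPM ± 16.0 in NP, 38.2 CPM ± 6.65 in stress RE and 40.4 CPM ± 4.07 in control RE punches. Tnr was 718 CPM ± 75.6, 749 CPM ± 77.1 and 703 CPM ± 85.6 in NP, control RE and stress RE punches.

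Of 73 other genes of the net, covering chondroitin sulfate synthesis, hyaluronan turnover, proteases and their inhibitors, tenascins, net receptors and net-bound factors, 69 could be tested over classes and none passed an adjusted p of 0.05 by edgeR in any comparison. An unadjusted p under 0.05 was seen in 54 of 828 tests (6.52%) for control RE minus NP, 14 higher and 40 lower, against the 3.39% over all genes. It was seen in 48 of 869 (5.52%, 26 higher and 22 lower) for stress RE minus control RE, against 2.92%, and in 54 of 865 (6.24%, 17 higher and 37 lower) for stress RE minus NP, against 3.96%. In the whole punch it was seen in 5 of 71 of these genes (7.04%, all lower), 0 of 71 and 3 of 71 (4.23%, 1 higher and 2 lower), against 3.99%, 0.86% and 3.94% over all genes, and none passed the adjusted threshold. The split into higher and lower was not counted over all genes, over classes or in the punch. The smallest p of each comparison belonged to B3gat3, which builds the linker of chondroitin sulfate chains, in Sst interneurons (29.2 CPM ± 12.9 in NP and 11.8 CPM ± 5.77 in control RE, log2 fold change −1.23, adjusted p = 0.985 by edgeR), to the protease Adamts20 in astrocytes (77.4 CPM ± 16.7 in stress RE, against 129 CPM ± 16.0 in control RE, −0.75, adjusted p = 0.960 by edgeR) and to Ptn, a growth factor that binds chondroitin sulfate, in astrocytes (569 CPM ± 29.5 in NP and 730 CPM ± 90.7 in stress RE, 0.35, adjusted p = 1.00 by edgeR).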

How the data were processed

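The deposited files hold 1 matrix of UMI counts for each of 15 mice, with 32285 genes and the barcodes called as nuclei, which the authors made in Cell Ranger on the mm10 build (GRCm38). The counts are whole numbers without normalization. Cell Ranger is given as 7.1.0 in the submitters' processing notes and 7.0.0 in the file headers. The free RNA, doublet and scaling steps of the methods are not part of the deposited counts.

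Nuclei needed 200 genes and at most 5% mitochondrial UMIs, and the barcodes with the highest doublet scores (Scrublet in scanpy 1.11.5) were dropped at 0.8% of barcodes per 1000 barcodes. Nuclei were clustered on 2000 variable genes without the genes reported or their pathway list (Leiden in igraph 0.11.9 at resolution 1, from 15 neighbours over 30 principal components), without joining libraries, and GABAergic and hippocampal excitatory clusters were clustered a second time on 1000 variable genes and 20 components. Names needed at least 3 detected markers (5 CPM and 2-fold over the median cluster) and a mean log2 fold of 2 over the list. In the second clustering of GABAergic clusters a GABAergic type needed 3, except the Gata3 and Pax3 class, which needed 2. Excitatory names other than Cajal-Retzius neurons also needed 50 CPM of Slc17a7 and Slc17a6 together. GABAergic names needed 100 CPM of Gad1 and Gad2 together. All these thresholds were set after clusters had been seen. Macrophages are part of the microglia class.

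Counts were summed per mouse and class (at least 10 nuclei, at least 3 mice in both groups) and tested with edgeR 4.0.16 (filterByExpr, TMM, quasi-likelihood test, all groups in 1 fit, Benjamini-Hochberg over all genes of a class, adjusted p under 0.05) in R 4.3.3. Each mouse is a separate animal, so p-values measure the spread between mice. DESeq2 1.42.0 was an alternative, with others in the closing section. In data simulated for Pvalb interneurons, edgeR called 56 of 100 genes changed by a log2 of 1 and 93 of 100 changed by a log2 of 2, among 7408 genes. The changed genes were drawn at random from those past the filter on low counts and were changed together. These shares therefore do not tell how often such a change in the 10 genes would be called. Highest and next classes were compared within mice by a two-sided exact sign-flip test on log2(CPM + 1). Positions come from the GENCODE annotation of GRCm38 and promoters from RefSeq. Python 3.11.15, numpy 2.4.6, scipy 1.17.1 and pandas 2.3.3 were used.

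The genes and lists were chosen with earlier results of these data known. Named were all 10 genes, the pathway gene with the smallest p in each comparison since none passed, and for each of the 10 the 3 genes with the most similar profile over classes. Group differences were described for the 10 genes at an unadjusted p under 0.01, and for others chosen after their values were seen.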

Additional observations from a re-analysis of the deposited data

Results flagged for a closer look

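Of 113 sets of mice of one group that were checked for a single mouse far from the rest, 6 had one, and chance alone marks about 1 in 20. NP mouse 31 was the highest of 6 NP mice for Acan in CA2 pyramidal neurons at 156 CPM, with the next mouse at 86.3 CPM, on 83 UMIs from 45 nuclei. It was also the highest NP mouse for Acan in the whole punch at 7.95 CPM, with the next at 4.36 CPM, and for Hapln4 in Pvalb interneurons at 58.2 CPM, with the next at 25.1 CPM, the latter on 11 UMIs from 22 nuclei. Mitochondrial UMIs were 0.224% in that library, the highest share of the 15, and its median nucleus held 3993 UMIs, the fewest of the 15, and their part in these levels was not tested.

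Stress RE mouse 70, of the same batch, was the highest of 5 stress RE mice for Acan in the whole punch at 5.92 CPM, with the next at 3.82 CPM. Control RE mouse 87 was the highest of 4 for Bcan in newly formed oligodendrocytes at 199 CPM, with the next at 104 CPM, on 44 UMIs. NP mouse 37 was the lowest of 6 for Tnr in newly formed oligodendrocytes at 2327 CPM, with the next at 6167 CPM, from 23 nuclei.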

How the results depend on the processing

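None of the 10 genes was called in any comparison under any alternative: DESeq2, DESeq2-type size factors, no filter on low counts, batch as an added term, at least 30 nuclei per mouse, or each mouse left out in turn. The smallest adjusted p was 0.101, for Tnr in Cajal-Retzius neurons with no filter on low counts. The log2 ratios of the highest to the next class of Bcan, Vcan and Hapln1 kept their sign and stayed past the threshold throughout. That of Has3 was −0.84 (progenitors higher than endothelial cells in 4 of 10 mice) and passed in no setting, so its order was not settled. The ratios of the other genes changed with thinning, doublet score, pseudocount or single mice. In thinned nuclei the ratio turned negative for Acan (−0.20), Ncan (−0.022), Hapln4 (−0.30), Has2 (−0.84) and Adamts5 (−0.62). For Acan, Hapln4, Has2 and Adamts5, several mice had no UMI left in 1 or both classes. A mouse at 0 lowers the mean of log2(CPM + 1), so thinning cannot show whether the order of these genes depends on depth. In the lower 80% of the doublet score the ratio turned for Has2 (−0.89) and Tnr (−0.76). It lost its call for Hapln4 (0.49, adjusted p = 0.0638 by the exact sign-flip test), and the cause was not tested. Adamts5 passed with a pseudocount of 5 CPM (0.56, adjusted p = 0.0366 by the exact sign-flip test) and without NP mouse 35 or stress RE mouse 90 (range 0.56 to 0.82 over mice left out). Ncan turned without control RE mouse 72 (range −0.017 to 0.23).

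Counts of class tests at an unadjusted p under 0.05 by edgeR, which were 7 of 105, 4 of 108 and 10 of 109 for control RE minus NP, stress RE minus control RE and stress RE minus NP, were 3, 7 and 10 with batch as an added term, 19 of 250, 13 of 260 and 23 of 260 with no filter, and 3 of 80, 4 of 101 and 7 of 80 with at least 30 nuclei. With each mouse left out in turn, the counts ran from 3 to 10, from 1 to 11 and from 6 to 15 in the same order, so they depended on single mice. DESeq2 gave no adjusted p in 2 tests of stress RE minus control RE and 5 of stress RE minus NP, among them Acan in CA2 pyramidal neurons. Of 25 fold changes followed through these settings (14 of them added after seeing the data), 4 moved by over 1.5 times when 1 mouse was left out. Without NP mouse 31 Acan in CA2 pyramidal neurons went from −0.78 to −0.44, and Bcan in precursor cells from −0.34 to −0.21 for control RE minus NP and from −0.31 to −0.17 for stress RE minus NP. Without control RE mouse 88 Tnr in microglia went from −0.68 to −0.43 for stress RE minus control RE. With batch as an added term, Bcan for control RE minus NP went to −0.16 in precursor cells and from −0.78 to −0.43 in newly formed oligodendrocytes. The 25 fold changes kept their sign in every setting in which they were tested, but 7 were not tested with each mouse left out. Hapln4 in Pvalb interneurons (2 comparisons) fell under the filter without NP mouse 27, 31, 63 or 73. Leaving out 1 mouse with enough nuclei left a group with under 3 mice in either group compared for Tnr and Vcan in striatal-type neurons and Tnr in progenitors, in NP for Vcan in progenitors, and in stress RE for Ncan in subiculum neurons. No paired analysis was possible because mouse numbers are not shared between groups. Depth limits the low genes, with 2 to 18 Hapln4 UMIs and 2 to 31 Acan UMIs per mouse in Pvalb interneurons.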
